A study of Rattus norvegicus with 6 samples.

Results

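The genes described here are 9 mRNAs that earlier literature reported as bound or regulated by AUF1, or as closely related AU-rich mRNAs: Ptgs2, Il6, Lif, Myc, Twist1, Mef2c, Dicer1, Usp1 and Bcl2. They were found by gene symbol in a table of read counts for 18718 genes, and all 9 had a row and passed the filter on low counts that left 12268 genes for testing. RNA was read in 6 libraries of HEI-OC1, an established auditory line known as one of mouse origin. In 3 of them, called siHnrnpd 1 to 3, the cells received an siRNA against Hnrnpd and are labelled as an AUF1 knock down. The other 3, called control 1 to 3, are labelled as controls and named after a control siRNA. All cells grew at 37 °C under 5% CO2 with 10% serum. The sources used here do not give the siRNA sequences, their dose or the time after transfection. No label says that replicates were grown separately, and p-values therefore reflect only how far these libraries differ, which may be technical. The labels name rat as the organism, and which species the reads came from was not tested.

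AUF1, the protein made from Hnrnpd, binds AU-rich elements, which are U-rich stretches with AUUUA motifs in the 3′ untranslated regions of many short-lived mRNAs. Depending on the mRNA and the cell, binding has been linked to faster decay, to stabilization or to changed translation. Cytokines, growth regulators and immediate response genes are the best known carriers of such elements. AUF1 binding and mRNA half-life were not measured in these libraries, so the values below are steady-state levels.

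Total counts ranged between 28984535 and 35842904 per library. The siRNA target Hnrnpd, in the table as Hnrpd, had 177, 200 and 183 CPM (counts scaled by library size and TMM factor) in siHnrnpd 1 to 3, against 319, 303 and 269 CPM in control 1 to 3. All 3 siHnrnpd libraries lay under all 3 controls, and the mean was 62.8% of the control mean. On the log2 scale Hnrnpd fell by 0.67 (SE 0.082; edgeR adjusted p = 0.0426). That call was kept without siHnrnpd 2 (adjusted p = 0.0458) and lost when any of the other 5 libraries was removed (0.0508 to 0.319). DESeq2 called Hnrnpd as well (adjusted p = 2.91e-10). The call was also lost with a block for replicate number and on log2(FPKM + 1), where 0 genes were called. As for the cell type, the hair cell genes Atoh1, Pou4f3, Calb1 and Pvalb had no row under their symbols, Gfi1, Slc26a5, Espn and Otof had 0 to 7 counts per library, and the markers past the filter were Myo6 and Myo7a. Of 8 supporting cell and prosensory genes, Sox2 and Isl1 had no row under their symbols, 6 had a row and 4 passed the filter. The summed level of the 6 was 50.3 to 67.4 CPM in siHnrnpd and 51.8 to 55.3 CPM in control libraries. Of 4 endothelial genes, 3 had a row and 1, Tek, passed the filter. Of 8 mesenchymal genes, 6 passed the filter: Col1a1, Col3a1 and Vim had 17454 to 146691 counts per library, Pdgfra and Pdgfrb had 1201 to 8684 and Col1a2 had 94 to 131, while Dcn and Postn, with 2 to 10, were under it. Of 7 macrophage genes, Cd14 had 1679 to 2348 counts per library, Cd68 72 to 93 and Aif1 15 to 42, while Ptprc, Adgre1, Csf1r and Itgam had 0 to 4 and were under the filter. The summed level of the 7 macrophage genes was 69.3 to 72.4 CPM in siHnrnpd libraries, against 61.0 to 65.7 CPM in control libraries. Most of that sum was Cd14 alone, with a mean of 67.4 CPM in siHnrnpd and 60.9 CPM in control libraries. Cd68 had 2.32 CPM in siHnrnpd and 2.50 CPM in control libraries, and Aif1 had 0.757 and 0.591 CPM. The sum is therefore mainly the level of Cd14, and its part in the results below was not tested. The library siHnrnpd 3 stood apart in interferon-stimulated genes, in a list of 13 written with earlier results of these data known. Their mean log2 difference from the control mean was -0.62, -0.50 and -2.16 in siHnrnpd 1 to 3, against -0.17 to 0.25 in the controls. All 13 genes were lowest in siHnrnpd 3, which was lowest in 2251 of the 12268 genes tested. Over all genes tested, control 1 was lowest in more genes (3072), and so was siHnrnpd 1 (2515). Because of how the list was chosen, these values describe siHnrnpd 3 and are no test.

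None of the 9 mRNAs passed the test between siHnrnpd and control. The count was 0 of 9 called at an adjusted p under 0.05, in a comparison where edgeR called 10 genes, or 0.0815% of all genes tested (0.0245% higher and 0.0571% lower). The count was also 0 of 9 at an unadjusted p under 0.05, against 11.0% of all genes (5.84% higher and 5.20% lower). DESeq2 called 0 of the 9 as well, but it gave Bcl2 no adjusted p, so Bcl2 could not be called there. Of the 11076 genes to which DESeq2 gave an adjusted p, it called 1.52% (0.533% higher and 0.984% lower). Without siHnrnpd 3 edgeR again called 0 of the 9. The adjusted p-values of the 9 ran from 0.529 to 0.990. Log2 values were positive in 4 and negative in 5, with a median of -0.011, and the median of all genes tested was 0.0054. The groups did not overlap in 2 of the 9, Ptgs2 above and Lif under the controls, while 17.0% of all genes tested did not overlap between the groups (8.42% higher and 8.57% lower). In bulk RNA such as this, fewer cells making a transcript and less of it per cell cannot be told apart.

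**Figure D1:**
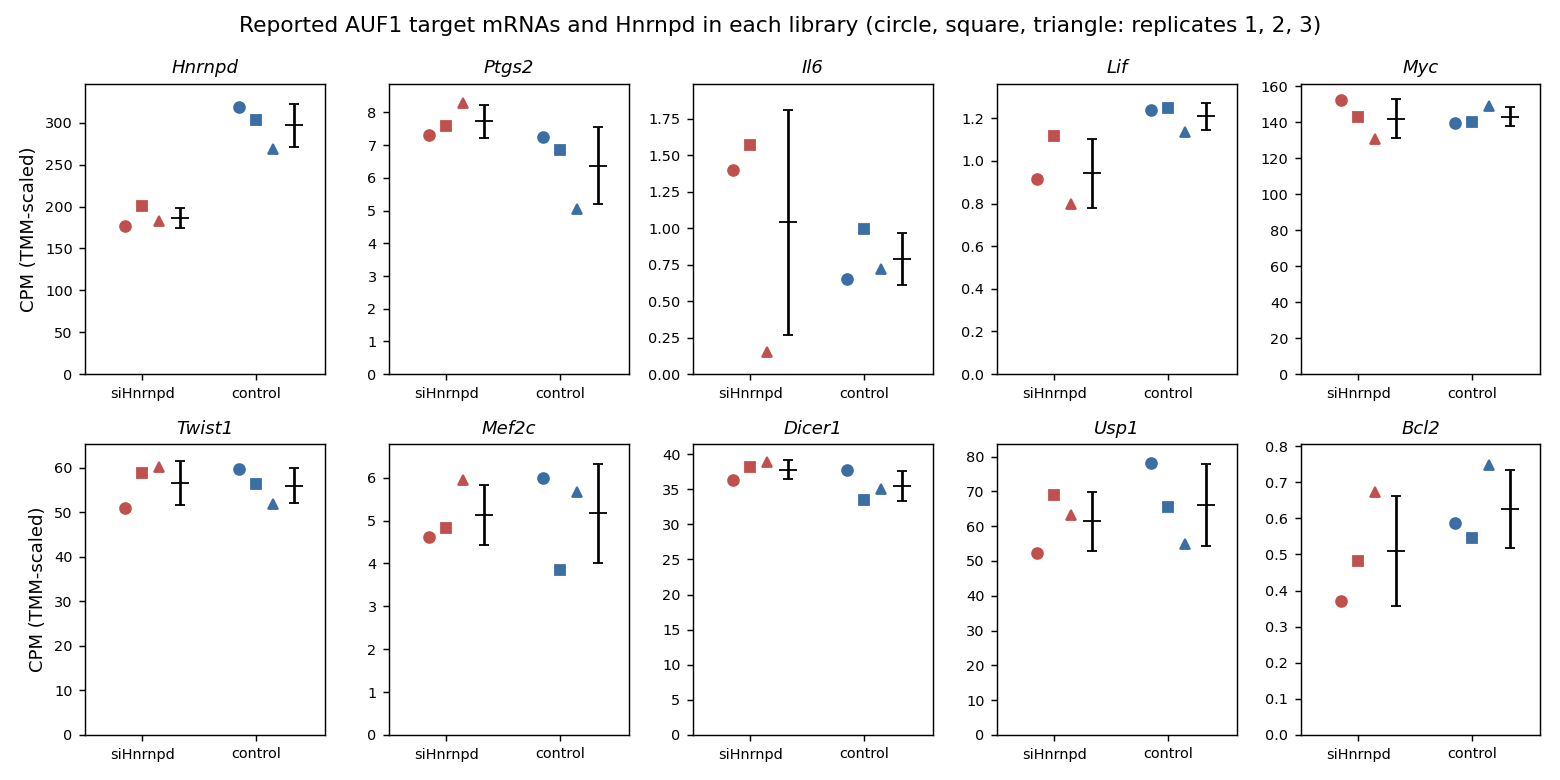
TMM-scaled CPM of Hnrnpd and of the 9 reported AUF1 targets in each library, siHnrnpd in red at the left and control in blue at the right, with a black bar for the mean ± SD (n = 3 each). Hnrnpd separates the groups, Il6 has siHnrnpd 3 at 0.153 CPM under every other library, and the panels of Myc, Twist1, Mef2c, Dicer1, Usp1 and Bcl2 show groups that overlap.

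A p-value that misses the threshold does not show that a level stayed the same, so the 95% interval of each log2 change is given. It lay within a 1.5-fold change in either direction for 5 of the 9 (Myc, Twist1, Mef2c, Dicer1 and Usp1) and within a 2-fold change for 7, which adds Ptgs2 and Lif. The intervals of Il6 and Bcl2 reached past 2-fold. For 6 of the 9 the interval was narrower in both directions than the measured fall of Hnrnpd. The narrowest intervals were those of Dicer1 and Myc, and the widest was that of Il6.

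**Figure D2:**
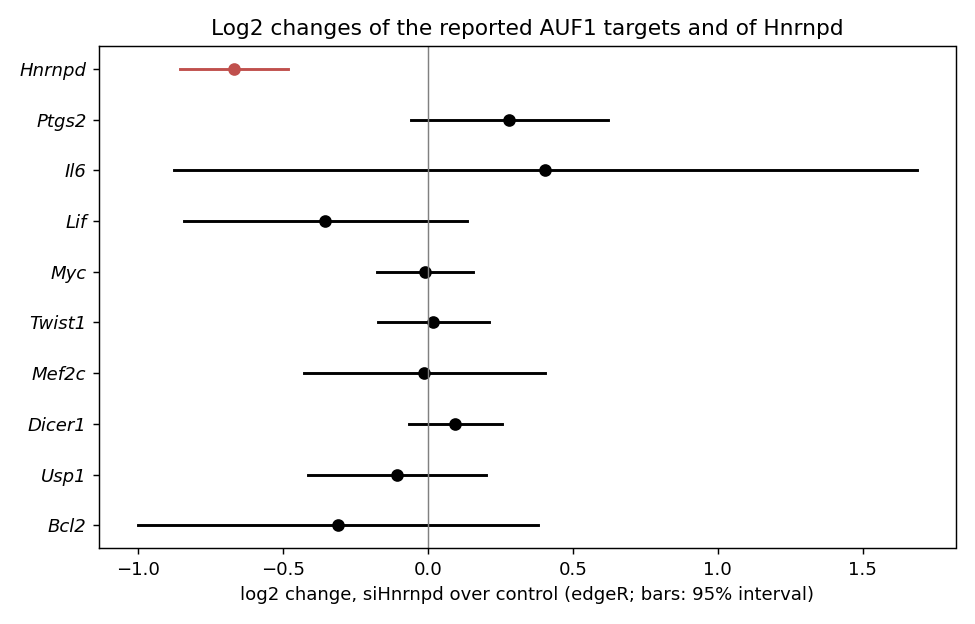
Log2 change of siHnrnpd over control with its 95% interval (edgeR quasi-likelihood fit) for Hnrnpd in red and the 9 reported AUF1 targets in black. The interval of Hnrnpd, -0.86 to -0.49, lies under 0, and all 9 others include 0, with the widest for Il6 at -0.88 to 1.69.

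Levels of the 9 mRNAs differed widely. The FPKM come from a rat build while the line is known as mouse, and the effect on levels between genes was not tested. Per kilobase of gene model, on the authors' FPKM scale, Myc was highest at 52.3 ± 3.39 FPKM in siHnrnpd and 52.1 ± 2.67 FPKM in control cells (SD, n = 3 each, as for all means in this paragraph). Twist1 followed at 30.3 ± 2.87 FPKM in siHnrnpd and 29.6 ± 1.84 FPKM in control cells, and Usp1 at 14.9 ± 2.05 FPKM in siHnrnpd and 15.9 ± 2.72 FPKM in control cells. These levels are above those of 90.8%, 85.3% and 77.0% of the genes in the FPKM table. Dicer1 had 3.30 ± 0.15 FPKM in siHnrnpd and 3.06 ± 0.20 FPKM in control cells. Ptgs2 had 1.52 ± 0.12 FPKM in siHnrnpd and 1.24 ± 0.22 FPKM in control cells. Down to Ptgs2, each mRNA lay above the next without overlap within either group. The remaining 4 lay under 1 FPKM on average. Il6 had 0.85 ± 0.63 FPKM in siHnrnpd and 0.64 ± 0.14 FPKM in control cells, and Mef2c had 0.69 ± 0.10 FPKM in siHnrnpd and 0.68 ± 0.16 FPKM in control cells. Bcl2 had 0.37 ± 0.12 FPKM in siHnrnpd and 0.45 ± 0.085 FPKM in control cells, and Lif had 0.36 ± 0.061 FPKM in siHnrnpd and 0.46 ± 0.017 FPKM in control cells. Il6 overlapped Mef2c, and Bcl2 overlapped Lif, within both groups, and Mef2c overlapped Bcl2 within the controls.

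**Figure D3:**
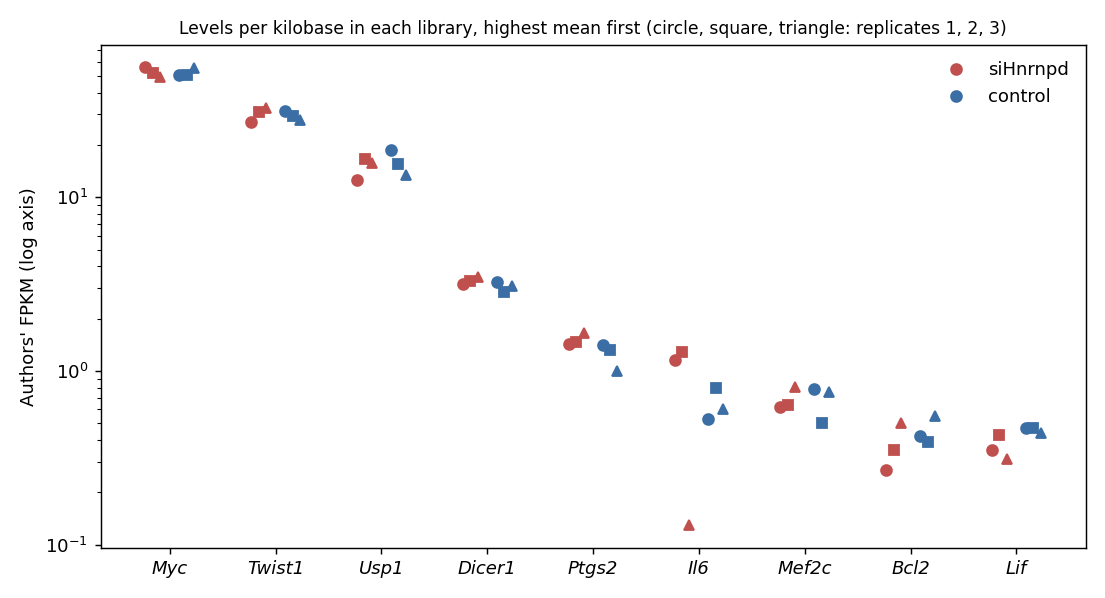
Authors' FPKM of the 9 mRNAs in each library on a log axis, in order of their mean, with siHnrnpd in red at the left and control in blue at the right of each position. Myc stands at about 52 FPKM in both groups and Bcl2 and Lif at the low end, and the single low Il6 value of 0.13 FPKM is that of siHnrnpd 3.

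Ptgs2, Il6 and Lif encode inflammatory mediators. Ptgs2 (ENSRNOG00000002525, chromosome 13) encodes cyclooxygenase 2, the inducible enzyme that starts prostaglandin synthesis, and its AU-rich mRNA is a long-studied AUF1 ligand. It had 256, 251 and 271 counts in siHnrnpd 1 to 3, against 210, 214 and 182 in control 1 to 3. As CPM these were 7.31, 7.58 and 8.30 in siHnrnpd 1 to 3, against 7.24, 6.86 and 5.04 in control 1 to 3. The groups did not overlap, although siHnrnpd 1 and control 1 lay close together, and control 3 was the lowest library. For Ptgs2 the log2 value was 0.28 with an SE of 0.15 and a 95% interval of -0.059 to 0.62 (edgeR adjusted p = 0.529). Without control 3 the log2 value was 0.13.

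Il6 (ENSRNOG00000010278, chromosome 4) encodes interleukin 6, an acute-phase cytokine induced through NF-kB. It had 49, 52 and 5 counts in siHnrnpd 1 to 3, against 19, 31 and 26 in control 1 to 3. The siHnrnpd libraries thus held both the highest values, at 1.40 and 1.57 CPM, and the lowest, at 0.153 CPM, with the controls between at 0.655, 0.994 and 0.720 CPM. Counting error alone puts the 5 counts of siHnrnpd 3 between 1.62 and 11.7, and the 49 of siHnrnpd 1 between 36.2 and 64.8 (exact Poisson 95% intervals, which cover counting error only). The coefficient of variation of Il6 among the siHnrnpd libraries was 74.3%, rank 40 from the highest among 12268 genes, against 22.8% among the controls. The median gene had 8.32% in siHnrnpd and 8.39% in control libraries. The log2 value of 0.40 had an SE of 0.57 (edgeR adjusted p = 0.835). It was 0.90 without siHnrnpd 3 (adjusted p = 0.262) and -0.0032 without siHnrnpd 2, and limma-voom gave -0.12, so these libraries fix no direction for Il6. The low library is the one with low interferon-stimulated genes, and their part in the Il6 value was not tested.

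Lif (ENSRNOG00000007002, chromosome 14) encodes leukemia inhibitory factor, a cytokine of the interleukin 6 family. It had 32, 37 and 26 counts in siHnrnpd 1 to 3, against 36, 39 and 41 in control 1 to 3. As CPM these were 0.914, 1.12 and 0.796 in siHnrnpd 1 to 3, against 1.24, 1.25 and 1.13 in control 1 to 3. The groups did not overlap, but the highest siHnrnpd value and the lowest control value nearly met. For Lif the log2 value was -0.36 with an SE of 0.22 and a 95% interval of -0.84 to 0.13 (edgeR adjusted p = 0.574). The exact Poisson intervals of the 3 siHnrnpd counts reached from 17.0 to 51.0 and those of the control counts from 25.2 to 55.6, for counting error alone.

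The promoter of Il6 is shown because its libraries were farthest apart, and that of Ptgs2 because its groups did not overlap. The groups of Lif did not overlap either, but no promoter sequence was available for Lif. Nothing in these data measured promoter activity. The sequences are the 250 bases before each gene's start in the rat assembly GRCr8, from RefSeq, for chr4:5894576-5894825 on the minus strand (Il6) and chr13:64713813-64714062 on the plus strand (Ptgs2), 5′ to 3′.
Il6: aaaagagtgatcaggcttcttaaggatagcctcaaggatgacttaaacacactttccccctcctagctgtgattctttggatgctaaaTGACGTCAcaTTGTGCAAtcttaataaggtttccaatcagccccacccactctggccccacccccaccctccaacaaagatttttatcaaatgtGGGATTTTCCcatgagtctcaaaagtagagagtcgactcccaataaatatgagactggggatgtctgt
Ptgs2: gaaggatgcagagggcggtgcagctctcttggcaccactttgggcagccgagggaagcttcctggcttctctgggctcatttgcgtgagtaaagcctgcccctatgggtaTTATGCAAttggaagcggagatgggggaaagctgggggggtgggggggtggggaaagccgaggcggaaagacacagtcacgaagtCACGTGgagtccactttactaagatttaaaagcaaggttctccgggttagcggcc
Capitals mark matches, on either strand, to NF-kB (GGGA, any base, TTTCC), AP-1 (TGANTCA), CRE (TGACGTCA), C/EBP (TTGCNNAA), TATA box (TATAAA) and E-box (CACGTG) letters, searched in windows that also held the 50 bases after the start. Il6 held the CRE letters at -162 to -155, the C/EBP letters at -152 to -145 and the NF-kB letters at -68 to -59 from the gene start. Ptgs2 held the C/EBP letters at -140 to -133 and the E-box letters at -55 to -50. Of 33469 rat promoter windows of the same length, 0.362% held the NF-kB letters, 1.83% the CRE, 10.6% the C/EBP and 6.42% the E-box letters. AP-1 letters occurred in 7.33% and the TATA box in 14.2% of all windows, and neither in these 2. Promoter sequences were available for 6 of the 9 genes, and not for Lif, Mef2c and Myc.

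Myc, Twist1 and Mef2c encode transcription factors. Myc (ENSRNOG00000004500, chromosome 7) encodes the growth-promoting factor c-Myc, whose mRNA was among the first in which AUF1 binding was described. It had 152, 143 and 131 CPM in siHnrnpd 1 to 3, against 140, 140 and 149 CPM in control 1 to 3. Both the highest and the lowest library were siHnrnpd libraries. The log2 value was -0.011 with an SE of 0.074 and a 95% interval of -0.18 to 0.15 (edgeR adjusted p = 0.974). With 4057 to 5389 counts per library, Myc was the most deeply counted of the 9.

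Twist1 (ENSRNOG00000011101, chromosome 6) encodes a basic helix-loop-helix factor of mesenchymal cells. It had 51.0, 58.8 and 60.1 CPM in siHnrnpd 1 to 3, against 59.7, 56.2 and 51.9 CPM in control 1 to 3. The groups covered nearly the same range. The log2 value was 0.018 with a 95% interval of -0.17 to 0.21 (edgeR adjusted p = 0.961).

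Mef2c (ENSRNOG00000033134, chromosome 2) encodes a MADS box factor of muscle and nerve cells whose mRNA AUF1 has been reported to act on in muscle cells. It had 4.63, 4.83 and 5.94 CPM in siHnrnpd 1 to 3, against 5.998, 3.85 and 5.67 CPM in control 1 to 3. The controls held both the highest and the lowest library. The log2 value was -0.012 with a wider 95% interval of -0.43 to 0.40 (edgeR adjusted p = 0.990).

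Dicer1, Usp1 and Bcl2 act in microRNA maturation, DNA repair and cell survival. Dicer1 (ENSRNOG00000010711, chromosome 6) encodes the ribonuclease that cuts microRNA precursors, and AUF1 has been reported to lower its mRNA. It had 36.3, 38.2 and 38.9 CPM in siHnrnpd 1 to 3, against 37.7, 33.5 and 35.1 CPM in control 1 to 3. The groups overlapped through control 1, which lay above siHnrnpd 1. For Dicer1 the log2 value was 0.094 with an SE of 0.072 and a 95% interval of -0.067 to 0.26 (edgeR adjusted p = 0.664).

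Usp1 (ENSRNOG00000007890, chromosome 5) encodes a deubiquitinase of the Fanconi anaemia repair pathway. It had 52.2, 69.0 and 63.1 CPM in siHnrnpd 1 to 3, against 78.2, 65.5 and 54.7 CPM in control 1 to 3. The groups overlapped, and the coefficient of variation was 13.9% in siHnrnpd and 17.8% in control libraries, above the median gene in both. The log2 value was -0.11 with a 95% interval of -0.41 to 0.20 (edgeR adjusted p = 0.815).

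Bcl2 (ENSRNOG00000002791, chromosome 13) encodes the founding anti-apoptotic protein of its family. Its counts were on average the lowest of the 9, with 13, 16 and 22 in siHnrnpd 1 to 3, against 17, 17 and 27 in control 1 to 3. As CPM these were 0.371, 0.483 and 0.674 in siHnrnpd 1 to 3, against 0.586, 0.545 and 0.747 in control 1 to 3. The groups overlapped through siHnrnpd 3, and the log2 value of -0.31 had a 95% interval of -1.001 to 0.38 (edgeR adjusted p = 0.753). Without siHnrnpd 3 the value was -0.57, which did not pass either (adjusted p = 0.615).

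**Figure D4:**
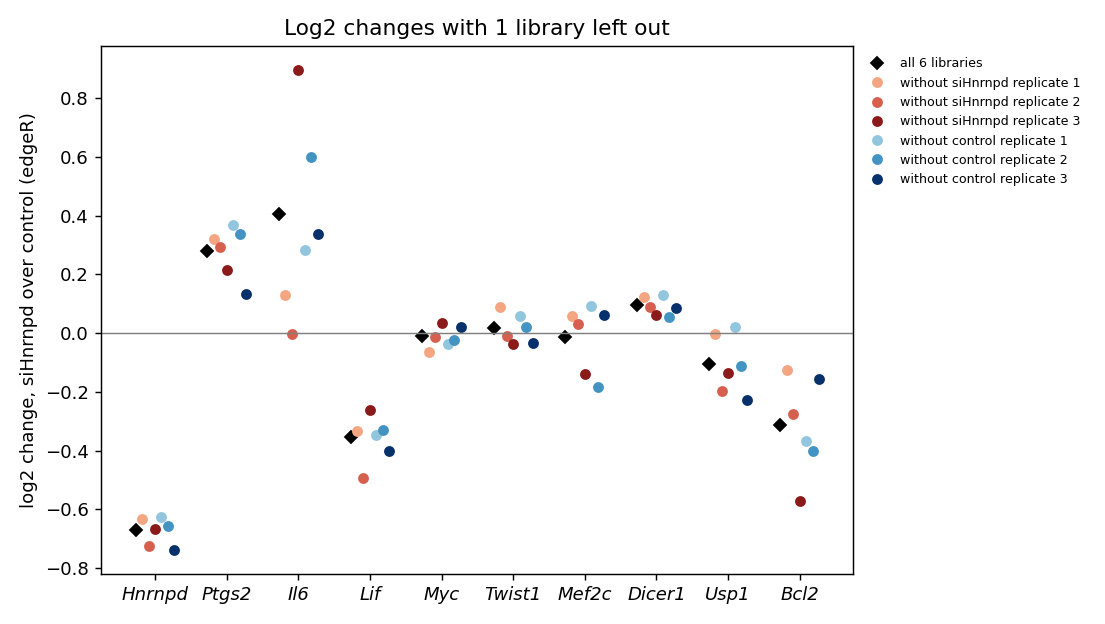
Log2 change of siHnrnpd over control for Hnrnpd and the 9 reported AUF1 targets with all 6 libraries (black diamonds) and with each library left out (red shades for siHnrnpd, blue shades for control). Hnrnpd stays between -0.74 and -0.63, Il6 runs from -0.0032 to 0.90, and the values of Usp1, Twist1, Mef2c and Myc fall on both sides of 0.

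Further mRNAs reported in earlier work as AUF1 targets gave the same count. Of 24 listed, 18 had a row, and Tnf, Il1b, Il10, Il3, Nos2 and Adrb1 had none under these symbols. Of the 12 that passed the filter, 0 were called by edgeR, 2 higher and 1 lower had an unadjusted p under 0.05, and the median log2 value was 0.033. Among all genes tested, 0.0815% were called, and 5.84% were higher and 5.20% lower at that unadjusted p. Ccl2, a monocyte chemokine, had 192, 260 and 189 CPM in siHnrnpd 1 to 3, against 329, 392 and 348 CPM in control 1 to 3. All siHnrnpd values of Ccl2 lay under all control values, at -0.74 on the log2 scale. This missed the threshold in edgeR (adjusted p = 0.0804) but was past it in DESeq2 (adjusted p = 6.57e-07). It was also past it without a filter on low counts (edgeR adjusted p = 3.75e-04) and without siHnrnpd 2 (edgeR adjusted p = 0.0138). Ccl2 was not called with a block for replicate number, on log2(FPKM + 1), or without control 1, control 2 or control 3. Those fits called 0 genes in all. Ccnd1, which encodes the G1 cyclin D1, had 202 ± 31.1 CPM in siHnrnpd and 159 ± 9.28 CPM in control cells (SD, n = 3 each), and Vegfa, an endothelial growth factor, had 51.0 ± 3.75 CPM in siHnrnpd and 44.4 ± 1.63 CPM in control cells. Their log2 values of 0.35 and 0.20 did not pass (edgeR adjusted p = 0.310 and 0.375), although the groups did not overlap in either gene.

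Genes that work with the 9 proteins, or are targets of Myc, were examined in 8 lists, which with the list above held 116 tested genes. None of the 116 was called by edgeR (lowest adjusted p 0.0804), that is 0 higher and 0 lower, while DESeq2 called 2, Ccl2 and Usp46. At an unadjusted p under 0.05 there were 19, 11 higher and 8 lower, which is 16.4% against 11.0% of all genes, and 30 did not overlap between the groups, 25.9% against 17.0%. For the counts of single lists below, the shares of all genes at that unadjusted p were 5.84% above and 5.20% below control. These lists were written with earlier results of these data known.

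In interleukin 6 family signalling, 16 members were tested, 0 above and 2 below control at an unadjusted p under 0.05, with a median of -0.054. Il6ra (listed as Il6r), the receptor chain that binds interleukin 6, had 11.2 ± 0.72 CPM in siHnrnpd and 14.2 ± 0.34 CPM in control cells (SD, n = 3 each), without overlap, or -0.34 on the log2 scale (edgeR adjusted p = 0.285, not called). The kinase Jak2 and the STAT3 inhibitor Pias3 had log2 values of -0.17 and -0.12. In the prostaglandin pathway, 12 were tested, 4 above and 0 below control at an unadjusted p under 0.05, with a median of -0.043. Slco2a1, a prostaglandin transporter, had 2.05 ± 0.35 CPM in siHnrnpd and 1.18 ± 0.11 CPM in control cells (SD, n = 3 each), which is 0.79 on the log2 scale (edgeR adjusted p = 0.223). The prostaglandin reductase Ptgr1 had a log2 value of 0.31. Ptger1, a prostaglandin E2 receptor, had 1.11 at a level of 0.405 CPM in siHnrnpd and 0.185 CPM in control cells. Its counts were 17, 12 and 12 in siHnrnpd 1 to 3, against 5, 5 and 8 in control 1 to 3. Ptger1 was not called (edgeR adjusted p = 0.325).

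In the Myc network, which here holds its partners and its target genes, 20 were tested, 0 had an unadjusted p under 0.05, and the median was 0.050. The MAX-binding repressor Mxi1 had a log2 value of -0.17, the RNA polymerase I subunit Polr1b 0.13 and spermidine synthase Srm 0.47. For Twist1 partners and genes of the epithelial to mesenchymal transition, 12 were tested, 2 above and 1 below control at an unadjusted p under 0.05, with a median of 0.088. Snai1, a repressor of epithelial genes, had 63.9 ± 8.87 CPM in siHnrnpd and 48.1 ± 6.71 CPM in control cells (SD, n = 3 each), which is 0.41 on the log2 scale (edgeR adjusted p = 0.300). The Twist1 dimer partner Tcf3 had a log2 value of 0.24 and N-cadherin, Cdh2, -0.24. The epithelial genes Cdh1 and Epcam were under the filter. In the MEF2 family with its histone deacetylase partners, 8 were tested, 1 was higher at an unadjusted p under 0.05, and the median was 0.086. Mef2d had a log2 value of 0.33, and the deacetylases Hdac4 and Hdac7 had 0.25 and 0.14.

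In microRNA processing, 16 were tested, 0 above and 1 below control at an unadjusted p under 0.05, with a median of 0.0080. Prkra, a Dicer cofactor, had 61.8 ± 0.34 CPM in siHnrnpd and 72.3 ± 2.50 CPM in control cells (SD, n = 3 each), without overlap, or -0.23 on the log2 scale (edgeR adjusted p = 0.264, not called). The argonaute Ago3 had a log2 value of 0.38 and the exporter Xpo5 0.11. Among partners and substrates of Usp1, 10 were tested, 0 above and 2 below control at an unadjusted p under 0.05, with a median of -0.040. Fancd2, the repair protein that Usp1 deubiquitinates, had 52.5 ± 1.81 CPM in siHnrnpd and 63.0 ± 1.35 CPM in control cells (SD, n = 3 each), which is -0.26 on the log2 scale (edgeR adjusted p = 0.203). Usp46, a deubiquitinase that shares the cofactor of Usp1, stood at -0.40 on the log2 scale, not called by edgeR (adjusted p = 0.257) but called by DESeq2 (adjusted p = 0.0467), and the transcription regulator Id2 had 0.29. In the BCL2 family, 10 were tested, 2 above and 1 below control at an unadjusted p under 0.05, with a median of 0.059. The pro-apoptotic members Bid and Bax had log2 values of 0.51 and 0.25, and Bcl2l11, which encodes BIM, had -0.25 (edgeR adjusted p = 0.323, 0.341 and 0.341).

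**Figure D5:**
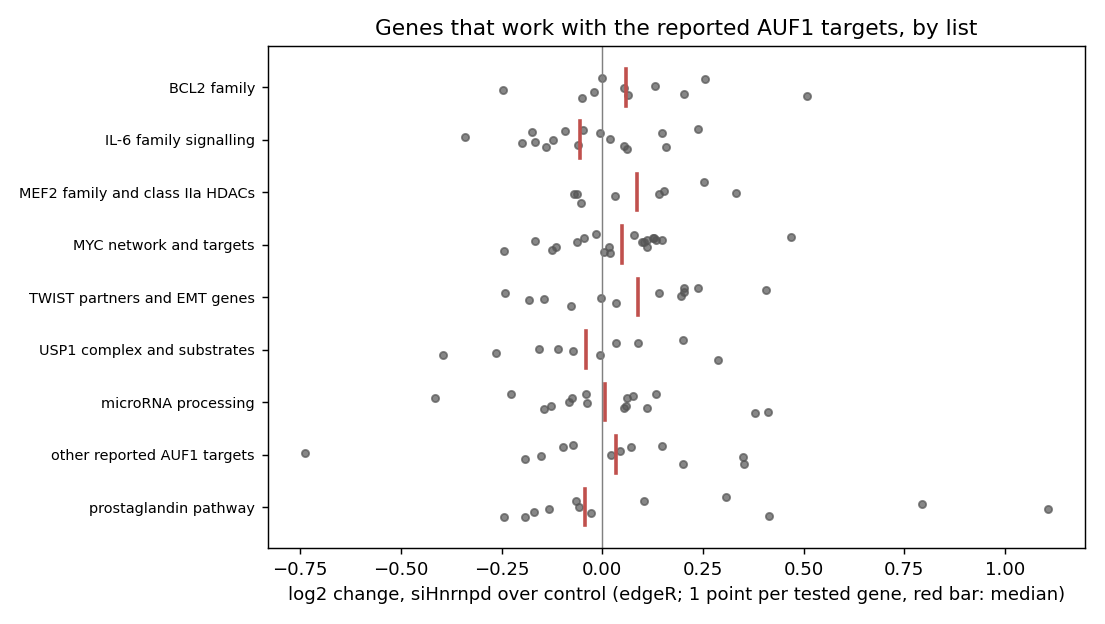
Log2 change of siHnrnpd over control for each tested gene of the 9 lists of related genes, with a red bar at each list's median. The medians lie between -0.054 and 0.088, the lowest point is Ccl2 at -0.74 and the highest Ptger1 at 1.11. The Ptger1 value rests on 5 to 17 counts per library.

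The genes whose log2 CPM most resembled each of the 9 over the 6 libraries are given as a description, since among 9175 or 9176 candidate genes with at least 5 CPM many reach a high correlation over 6 libraries that share the same groups and depths. Il6 had 105 candidates with a Pearson r over 0.9. Among its closest was Sod2, the mitochondrial superoxide dismutase, with an r of 0.989. Sod2 had 1311, 1252 and 744 CPM in siHnrnpd 1 to 3, against 1046, 1109 and 1049 CPM in control 1 to 3, so it too had siHnrnpd 3 lowest and the other siHnrnpd libraries highest. Usp1 had 581 candidates over 0.9, led by Matr3 and Haus3, and Twist1 had 200, led by Tfb2m and Mbip. Among the closest to Lif were Herc6 and Etfa, to Myc Sdr39u1 and Mesdc1, to Mef2c Snx27 and Cep295, to Dicer1 Tyw5 and Mgat3, to Bcl2 Rbm4b, and to Ptgs2 Gstcd and Lrrc61, each with an r of 0.9755 to 0.989.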

How the data were processed

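RNA abundance was measured in 6 HEI-OC1 libraries, read as 150 nt paired ends per the labels' protocols. The authors used TopHat2 and the build mRatBN7.2, per the submitters' processing notes, while contig names in the deposited tables are of another rat assembly, so no coordinates from them are printed. The sources used here give no counter, strand setting or annotation, so antisense or overlapping genes may share reads. The deposited count table holds whole-number counts, not normalized, and the second deposited table holds FPKM computed by the authors for 18628 genes. Every column was assigned to a sample from its siRNA and number, leaving 0 unassigned.

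The test on counts was edgeR 4.0.16 under R 4.3.3 (filterByExpr, TMM, quasi-likelihood fit on group alone, Benjamini-Hochberg adjustment over 12268 genes, calls under 0.05). The SE is the log2 change divided by the root of the F statistic, and 95% intervals use the fit's degrees of freedom. Alternatives were DESeq2 1.42.0, limma-voom (limma 3.58.1), RLE and upper-quartile scaling, no filter, a minimum of 50 counts in 3 libraries, a block for replicate number, each library left out, and limma on FPKM (pseudocount 1 with a minimum mean of 1 FPKM or none, or pseudocount 0.1); on the log2 scale the pseudocount understates changes of low genes. The fits were also run on simulated data, and the share of changes that they recovered there is not reported here. Of 199 list entries, 177 matched by symbol, 1 through a RefSeq synonym and 21 not at all; Npm1 had 2 rows and was left out. Named genes are Hnrnpd, the 9 mRNAs, up to 3 per list with the smallest p, and for each of the 9 the 2 with the highest correlation; some of these are not reported here. The 9 mRNAs, the lists and the motifs were chosen with earlier results of these data known. No library repeated another: each of the 15 pairs differed beyond sampling noise. Chi-square over degrees of freedom ran from 11.9 to 38.0 within the controls and from 24.5 to 32.5 within siHnrnpd. Across the groups it ran from 14.8 to 61.2, so the libraries did not sort by group on this measure.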

Additional observations from a re-analysis of the deposited data

How the results depend on the processing

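Over the 16 alternatives, 133 fits of the 9 mRNAs gave 0 calls, with a lowest adjusted p of 0.262. The DESeq2 fit of Bcl2 had no adjusted p and could not be called. Of the 133 fits, 114 had the sign given above. The sign differed in the other 19. For Il6 it did with limma-voom (-0.12) and within a leave-one-out range of -0.0032 to 0.90. Mef2c had 0.0023 with limma-voom, 0.0026 with the replicate block and 0.0084 on log2(FPKM + 1) without a minimum, and -0.18 to 0.092 with 1 library left out. Myc had 0.00083 with upper-quartile scaling, 0.0036 on log2(FPKM + 1) with or without a minimum and 0.0036 on log2(FPKM + 0.1), and -0.064 to 0.034 with 1 library left out. Usp1 and Twist1 ran from -0.23 to 0.020 and from -0.037 to 0.089 with 1 library left out. Bcl2, Il6 and Lif were under the filter of 50 counts, and these and Mef2c under the FPKM minimum, so those fits gave no value for them. The counts over all genes, 10 called, 3 higher and 7 lower, became 168, 59 and 109 with DESeq2 and 147, 46 and 101 without a filter, 6 called with 3 lower under upper-quartile scaling, and 5 called, 1 higher and 4 lower on log2(FPKM + 0.1). They became 0, 0 and 0 with the replicate block and on log2(FPKM + 1) with or without the minimum, where the unadjusted p was under 0.05 for 1062, 1157 and 1604 genes. Limma-voom and the filter of 50 counts each called 5 higher. With 1 library left out the counts ran from 0 to 14 called, 0 to 7 higher and 0 to 7 lower, and were 0 without control 1, control 2 or control 3, where 964, 724 and 1919 genes reached that unadjusted p. The causes were not tested. The replicate numbers were not shown to pair libraries: deviations from the group means correlated at -0.26, 0.14 and 0.10 for replicates 1, 2 and 3. Among the 9 mRNAs, the lowest counts were those of Il6, Lif and Bcl2, with 5 to 52 per library.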

Other observations

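Several of the 9 mRNAs were minor members of their own families in these cells, by the authors' FPKM, a scale per kilobase of gene model. These relatives were named after their values were seen, and no test is attached to the levels. Ptgs1, which encodes the constitutive cyclooxygenase 1, had 57.0 FPKM in siHnrnpd and 58.9 FPKM in control cells, while Ptgs2 stayed under 2 FPKM in every library. Bcl2l1, which encodes the anti-apoptotic BCL-XL, had 31.5 FPKM in siHnrnpd and 28.4 FPKM in control cells, while Bcl2 stayed under 1 FPKM in every library. Among cytokines of the interleukin 6 family, Clcf1 had 11.1 FPKM in siHnrnpd and 9.81 FPKM in control cells and Il11 had 6.19 FPKM in siHnrnpd and 5.21 FPKM in control cells, above Il6 and Lif. Mef2d had 10.0 FPKM in siHnrnpd and 7.87 FPKM in control cells, above Mef2c. Other relatives went the other way. Twist2 had 11.2 FPKM in siHnrnpd and 11.6 FPKM in control cells, under Twist1. In siHnrnpd and control cells, Mycn had 0.043 and 0.020 FPKM and Mycl 0.017 and 0.017 FPKM, both under Myc. Osm, with 0.013 FPKM in siHnrnpd and 0.013 FPKM in control cells, lay under Il6 and Lif.

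The shared receptor chain Il6st had 10.2 FPKM in siHnrnpd and 10.4 FPKM in control cells, the LIF receptor Lifr 0.587 FPKM in siHnrnpd and 0.620 FPKM in control cells, and Stat3, their downstream factor, 39.4 FPKM in siHnrnpd and 42.9 FPKM in control cells. The prostaglandin E synthase Ptges, which is often induced together with Ptgs2, had 0.260 FPKM in siHnrnpd and 0.240 FPKM in control cells, while the constitutive Ptges2 had 23.2 FPKM in siHnrnpd and 23.9 FPKM in control cells. In the microRNA pathway Drosha had 12.5 FPKM in siHnrnpd and 13.0 FPKM in control cells.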
